A study of Mus musculus with 12 samples.

Results

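Axonemal dyneins are the motor complexes that make cilia and flagella beat, and dynein axonemal assembly factors are the proteins that fold and put them together in the cytoplasm. All protein-coding genes of the deposited count table were taken whose symbol begins with Dnah (heavy chains), Dnai (intermediate chains), Dnal (light chains, with Dnali1) or Dnaaf (assembly factors). This gave 31 genes of the 56748 in the table, of which 21970 were protein coding. They were 5 outer arm heavy chains, 10 inner arm and other heavy chains, 4 intermediate chains, 3 light chains and 9 assembly factors. Dnaaf8, listed as a transcribed unitary pseudogene, and Dnah2os, a long non-coding RNA antisense to Dnah2, were left out by their biotype.

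The outer and inner dynein arms sit in rows along the microtubule doublets of the axoneme, the shaft of a motile cilium. Each arm is built on large heavy chains that hydrolyse ATP, joined by intermediate and light chains that anchor and regulate them. In the lung, motile cilia are carried by the ciliated cells that line the airways, and inherited loss of many of these genes causes primary ciliary dyskinesia, in which mucus is not cleared.

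RNA was measured by sequencing of whole lung from mice with MMTV-PyMT, a transgene that expresses the polyoma middle T oncogene from the mouse mammary tumour virus promoter and gives mammary tumours that spread to the lung. The wild-type group (WT) is described as MMTV-Cre; MMTV-PyMT in the series' design text and as MMTV-PyMT in the strain label, the C3 knockout group (C3 KO) as MMTV-Cre;C3Tdt:MMTV-PyMT, and the S1pr1 knockout group (S1pr1 KO) as MMTV-Cre;S1pr1fl/fl; MMTV-PyMT. Lungs were collected at 4.5 months and all samples carry the treatment label of lung metastasis. C3 is the central complement protein and S1pr1 a receptor for sphingosine-1-phosphate, and the title of the series asks how their conditional loss bears on lung metastasis. By the design text Cre was present in all 3 groups, and its MMTV promoter acts mainly in mammary epithelium. There were 4 libraries per group, and the labels do not tie each to its own animal, so a p-value here reflects only sample-to-sample spread, which may be technical.

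Total counts ranged from 32274797 to 53063470 per library. Levels are given as CPM, counts per 1000000 of the library size with TMM scaling, a normalisation in edgeR that sets the bulk of genes equal between libraries. C3 lay at 787 to 1025 CPM in WT and at 475, 465 and 601 CPM in C3 KO 1, 2 and 3, but reached 1416 CPM in the library that is labelled C3 KO 4. S1pr1 lay at 295 to 491 CPM in WT and at 132, 142 and 154 CPM in S1pr1 KO 1, 3 and 4, but reached 366 CPM in the library that is labelled S1pr1 KO 2. The levels of these 2 libraries go against their labels, so some calls, medians and fold changes below are also given without both. Whether the labels are right was not tested, so the values without both are an alternative and not a correction. Cell markers and other gene lists are given on all 12 libraries only. All 18 markers of ciliated cells were expressed, with Foxj1, their master regulator, at 69.1 to 185 CPM over the 12 libraries. In whole tissue, fewer cells of a type and less RNA per cell cannot be told apart.

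Promoter sequence was available in the RefSeq table (GRCm38.p6) for 23 of the 31 genes. Ciliary genes are known to be controlled by RFX factors, which bind the X-box, and by the forkhead factor Foxj1. The 300 bases from 250 before to 50 after the start site were searched on both strands for the X-box, for GTTGCC, which is one arm of the X-box and overlaps it, and for TGTTTA, the forkhead core. A match to GTTGCC was found in 9 of the 23 promoters (39.1%), against 12.5% of all 32851 promoters in the table. TGTTTA was found in 7 (30.4%), against 13.4% of all, and the X-box in 3 (13.0%), those of Dnaaf2, Dnaaf6 and Dnaaf6b, against 1.53% of all. These are matches of letters, given as a description without a test. Related promoters were counted separately, so these matches are not all independent. The stretches around the X-box are much alike in Dnaaf6 and Dnaaf6b. The GTTGCC matches include the related genes Dnah7a, Dnah7b and Dnah7c, in similar stretches. The promoters of the 3 genes that rose in S1pr1 KO are shown from 225 before to 25 after the start, with that of Dnaaf6, whose symbol pairs it with Dnaaf6b but which had no read in any library. All lie on the plus strand of GRCm38.p6, read 5′ to 3′, and capitals mark the X-box in Dnaaf6b and Dnaaf6, both TGTTTA matches in Dnah12 and GTTGCC in Dnah7c.
Dnaaf6b, chrX:140062654-140062903: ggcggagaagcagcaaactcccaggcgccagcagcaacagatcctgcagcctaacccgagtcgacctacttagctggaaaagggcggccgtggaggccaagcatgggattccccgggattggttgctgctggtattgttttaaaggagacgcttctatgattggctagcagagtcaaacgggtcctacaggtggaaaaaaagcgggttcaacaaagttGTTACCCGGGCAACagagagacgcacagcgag
Dnaaf6, chr1:31222614-31222863: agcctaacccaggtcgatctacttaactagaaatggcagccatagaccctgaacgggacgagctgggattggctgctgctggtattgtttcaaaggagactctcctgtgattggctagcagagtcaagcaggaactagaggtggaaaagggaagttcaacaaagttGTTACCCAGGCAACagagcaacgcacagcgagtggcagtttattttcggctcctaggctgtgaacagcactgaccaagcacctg
Dnah12, chr14:26691329-26691578: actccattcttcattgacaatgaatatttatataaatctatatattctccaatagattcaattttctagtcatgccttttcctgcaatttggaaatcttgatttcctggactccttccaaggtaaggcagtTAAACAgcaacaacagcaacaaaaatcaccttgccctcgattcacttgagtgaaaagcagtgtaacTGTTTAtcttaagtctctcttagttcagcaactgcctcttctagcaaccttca
Dnah7c, chr1:46425293-46425542: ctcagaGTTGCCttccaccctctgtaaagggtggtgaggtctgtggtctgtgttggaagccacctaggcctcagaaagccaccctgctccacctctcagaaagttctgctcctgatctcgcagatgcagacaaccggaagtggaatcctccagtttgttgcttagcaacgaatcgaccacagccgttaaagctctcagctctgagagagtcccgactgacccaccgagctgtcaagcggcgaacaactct
The X-box begins 7 bases before the start in Dnaaf6b and 59 before it in Dnaaf6. The forkhead core lies 94 and 28 bases before the start in Dnah12, once on each strand. GTTGCC lies 219 bases before the start in Dnah7c. Near matches to the X-box, such as gttgcttagcaac in the stretch of Dnah7c, were neither counted nor marked.

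Between genes, levels were compared per length, as the FPKM values the authors deposited (reads per kilobase of the listed gene length, scaled to the library). The light chain genes Dnali1 and Dnal4 had the highest means over the 12 libraries, 12.7 and 12.6 FPKM. The assembly factors Dnaaf9 (9.68 FPKM), Dnaaf3 (7.58 FPKM) and Dnaaf5 (6.98 FPKM) followed, and the other light chain, Dnal1, lay at 6.14 FPKM. Dnah6, a single-headed inner arm heavy chain, had the highest mean of the heavy chains at 6.13 FPKM, and among the outer arm chains the order was Dnah5 (3.71 FPKM), Dnah9 (2.19 FPKM) and Dnah11 (1.72 FPKM). The 3 closely related copies Dnah7a, Dnah7b and Dnah7c lay at 0.47 to 0.64 FPKM. Dnah17 (0.42 FPKM) and Dnah8 (0.25 FPKM), outer arm chains known mainly from the sperm flagellum, and Dnah14 (0.083 FPKM) were the lowest heavy chains. In all, the 31 genes took 0.0544% of the reads in WT 1, the lowest library, and 0.115% in S1pr1 KO 4, the highest.

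**Figure D1:**
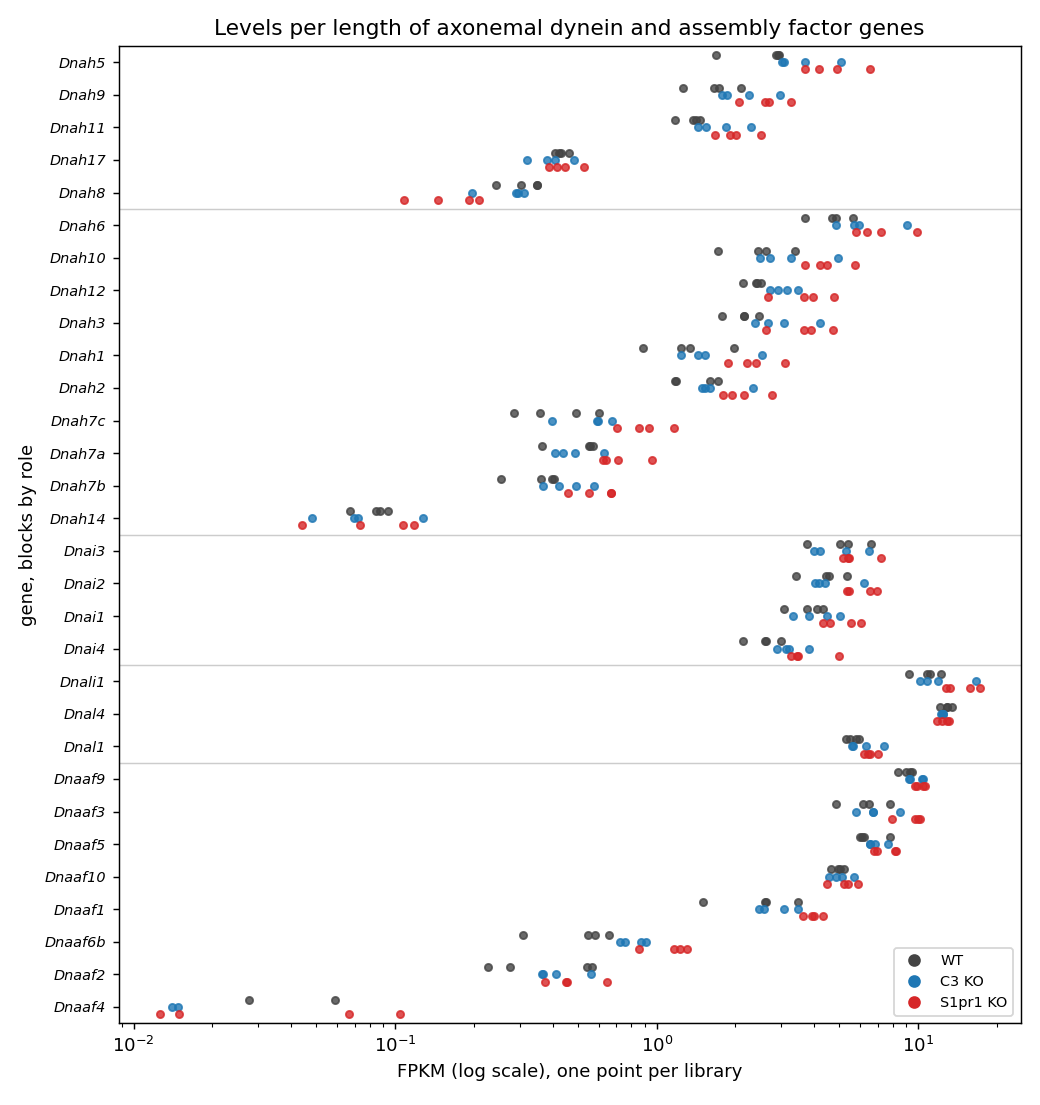
FPKM of each gene on a log axis, 1 point per library, coloured by group and set in blocks by role (from the top: outer arm heavy chains, inner arm and other heavy chains, intermediate chains, light chains, assembly factors). Dnaaf6 and the libraries in which Dnaaf4 had no read are not drawn, since 0 has no place on a log axis. Means run from 0.083 FPKM in Dnah14 to 12.7 FPKM in Dnali1 among the genes tested.

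Expression was compared with edgeR's quasi-likelihood test on all 12 libraries, and Benjamini-Hochberg adjustment covered the 20229 genes left by its low-count filter. A gene is said to have risen or fallen only where this adjusted p was under 0.05. Of the 31 genes 29 were tested. Dnaaf4, an assembly factor, had 27 reads in all libraries together and Dnaaf6 had 0, so neither was tested.

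In S1pr1 KO lungs the dyneins and their assembly factors had higher fitted levels than in WT across most of the set. Of the 29 genes 27 had a positive log2 fold change and 2 a negative one (Dnah8 and Dnal4), with a median of 0.56, while 49.8% of all genes tested were positive, 50.2% were negative and their median was -0.0011. Of these 3 rose and 0 fell, where 0.821% of all genes rose and 0.534% fell. They were Dnaaf6b (log2 fold change 1.13, SE 0.24, edgeR adjusted p = 0.0436), Dnah7c (1.08, SE 0.24, edgeR adjusted p = 0.0486) and Dnah12 (0.67, SE 0.14, edgeR adjusted p = 0.0458). All 4 S1pr1 KO libraries lay above all 4 WT libraries for 17 genes, against 6.16% of all genes, and all lay below for 1 gene, Dnah8, against 5.18%. An unadjusted p under 0.05 was reached by 22 of the 29, and by 3651 of the 20229 genes.

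The 3 calls depended on the libraries and the tool. Without both libraries that go against their labels, 12 genes rose (1.55% of all genes) and 0 fell (0.763%). They were Dnah12, Dnah3, Dnah11, Dnah5, Dnaaf3, Dnah9, Dnah7b, Dnah10, Dnah7c, Dnah2, Dnah6 and Dnai4, with log2 fold changes from 0.63 to 1.19. Dnaaf6b was then at 1.07 (edgeR adjusted p = 0.0680). DESeq2 on the 12 libraries called 15 genes higher (3.21% of all genes) and Dnah8 lower (2.19%). In edgeR, 0 were called when any 1 of WT 1, WT 2, WT 3, WT 4, C3 KO 1, C3 KO 2, S1pr1 KO 1, S1pr1 KO 3 or S1pr1 KO 4 was left out, where 0.00972% to 0.533% of all genes were called higher and 0% to 0.455% lower. Without the library labelled C3 KO 4, 10 were called, 9 higher (1.68% of all genes) and 1 lower (1.09%). That library is in neither group compared and enters only through the shared spread, scaling and filter. The log2 fold changes hardly moved, for example 0.90 in Dnah5 and 0.67 in Dnah12 with or without it. Without S1pr1 KO 2 only Dnah12 and Dnah3 were called, and without C3 KO 3 only Dnah7c and Dnaaf6b. The share of all genes called is not given for these last fits.

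**Figure D2:**
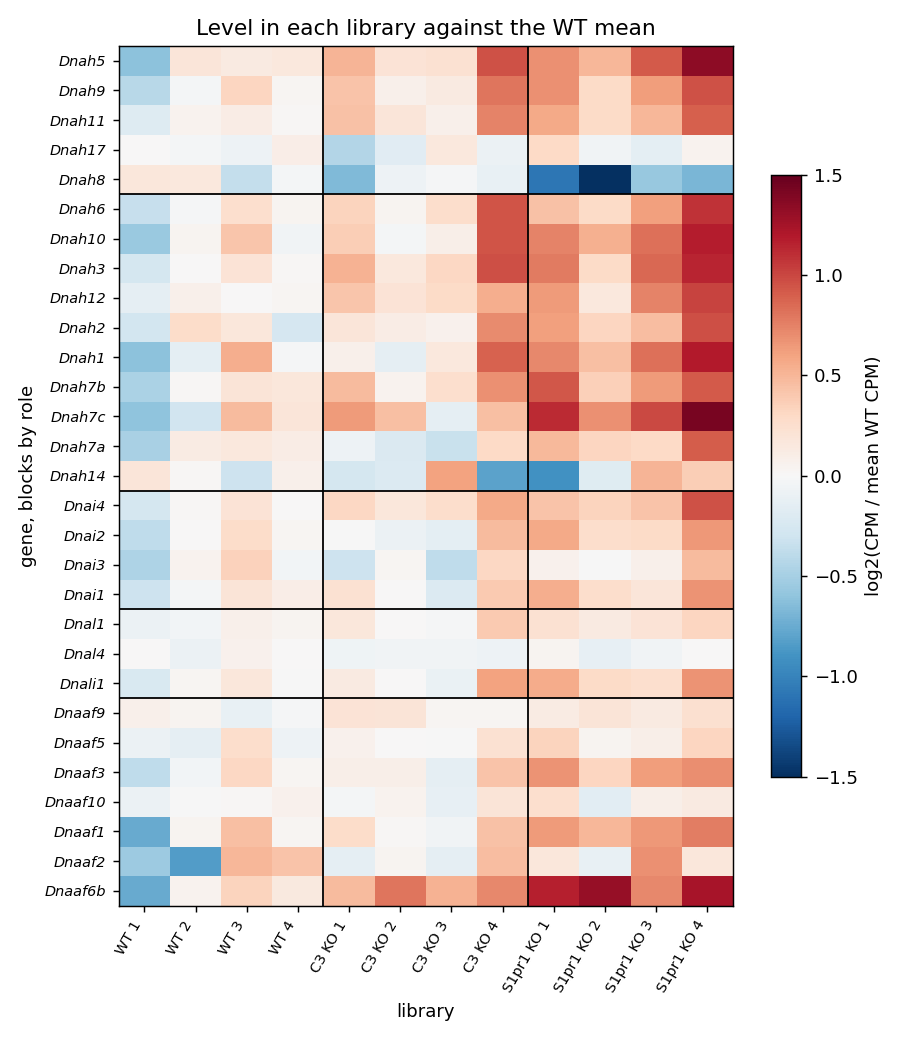
Colour gives log2 of the CPM in each library over the mean CPM of the WT libraries, with genes in rows in blocks by role and libraries in columns, separated by group. Most rows are red throughout S1pr1 KO, palest in S1pr1 KO 2, and red also in C3 KO 4. WT 1 is blue in most rows, and the row of Dnah8 runs the other way.

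The outer arm heavy chains of airway cilia each had a higher mean in S1pr1 KO. Dnah5, the chain most often mutated in primary ciliary dyskinesia (ENSMUSG00000022262, chromosome 15 from 28203898 to 28472198, GRCm39 as for all gene positions here), had 26.6, 46.1, 45.0 and 45.6 CPM in WT, 58.1, 47.2, 47.9 and 79.1 CPM in C3 KO and 65.8, 57.5, 77.3 and 103 CPM in S1pr1 KO. Every S1pr1 KO library lay above every WT library, WT 1 was far below the other WT libraries, and the library labelled C3 KO 4 lay above 3 of the 4 S1pr1 KO libraries. The log2 fold change was 0.90 (SE 0.22, edgeR adjusted p = 0.0685), which did not pass.
Dnah9, a partner of Dnah5 in the distal part of the cilium (ENSMUSG00000056752, chromosome 11 from 65722108 to 66059377), had 20.2, 26.5, 33.7 and 27.6 CPM in WT, 36.2, 28.5, 29.7 and 47.2 CPM in C3 KO and 43.4, 33.0, 41.8 and 52.3 CPM in S1pr1 KO. WT 3 lay above S1pr1 KO 2, so the groups overlapped, and the difference of 0.66 (SE 0.19, edgeR adjusted p = 0.0953) did not pass. Dnah11, its counterpart in the proximal part, was at 17.2 to 21.2 CPM in WT and 24.0 to 36.6 CPM in S1pr1 KO (0.58, SE 0.15, edgeR adjusted p = 0.0774).
Per length, Dnah9 was at 0.50 to 0.75 of the Dnah5 level over the 12 libraries and Dnah11 at 0.38 to 0.70 of it, and in both the ratio was highest in WT 1, where Dnah5 was low.

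The outer arm chains known from sperm did not have clearly higher values in S1pr1 KO. Dnah8 (ENSMUSG00000033826, chromosome 17 from 30843328 to 31096339) had 9.45, 9.33, 6.53 and 8.17 CPM in WT, 5.29, 7.93, 8.30 and 7.75 CPM in C3 KO and 3.96, 2.91, 5.66 and 5.19 CPM in S1pr1 KO. All S1pr1 KO libraries lay below all WT libraries, and C3 KO 1 lay with the S1pr1 KO libraries. The difference of -0.92 on the log2 scale (SE 0.21, edgeR adjusted p = 0.0570) lay just outside the threshold. Dnah8 was at 0.085 to 0.21 of the Dnah5 level per length in WT, 0.053 to 0.10 in C3 KO and 0.029 to 0.043 in S1pr1 KO. The highest WT ratio was that of WT 1, where Dnah5 was low, and WT 2, 3 and 4 were at 0.12, 0.085 and 0.10. Dnah17 was at 6.59 to 7.49 CPM in WT and 6.29 to 8.56 CPM in S1pr1 KO (0.05, SE 0.14).

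Dnah8 overlaps Glo1, a glyoxalase gene on the opposite strand whose 5′ part lies inside it, and whether counting used strand is not given in the sources used here. Glo1 was at 69.6, 69.3, 74.0 and 67.3 CPM in WT, 44.0, 49.3, 49.3 and 73.6 CPM in C3 KO and 49.0, 49.8, 45.3 and 46.8 CPM in S1pr1 KO. All S1pr1 KO libraries lay below all WT libraries in Glo1 too (-0.55, SE 0.13, edgeR adjusted p = 0.0542), and the library labelled C3 KO 4 lay with WT while the other C3 KO libraries did not. The part of Glo1 in the Dnah8 counts was not tested.

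The inner arm and other heavy chains had the highest median of the 5 roles, 0.70 over 10 genes, all of them positive. Of these genes 8 were higher in S1pr1 KO than in WT without overlap, against 6.16% of all genes. Dnah12 (ENSMUSG00000021879, chromosome 14 from 26414429 to 26613660), a single-headed chain, had 26.0, 30.2, 28.8 and 29.2 CPM in WT, 38.1, 32.8, 34.9 and 41.6 CPM in C3 KO and 44.5, 31.9, 47.7 and 57.6 CPM in S1pr1 KO. WT was narrow, the lowest S1pr1 KO library was S1pr1 KO 2, only just above the highest WT library, and all C3 KO libraries lay above WT as well. Its mean was 28.6 ± 1.82 CPM in WT and 45.4 ± 10.6 CPM in S1pr1 KO (SD, n = 4 each). Without the library labelled S1pr1 KO 2 the log2 fold change was 0.81 (edgeR adjusted p = 0.0221). In that fit Dnah7c and Dnaaf6b were no longer called.

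Dnah7c (ENSMUSG00000101337, chromosome 1 from 46464752 to 46846636) had 3.60, 4.50, 7.58 and 6.23 CPM in WT, 8.56, 7.49, 5.0 and 7.50 CPM in C3 KO and 11.9, 8.84, 10.9 and 14.8 CPM in S1pr1 KO. The S1pr1 KO libraries lay above every WT and every C3 KO library. Dnah7a (ENSMUSG00000096141, chromosome 1 from 53436165 to 53745943) had 4.68, 7.13, 7.29 and 7.08 CPM in WT, 6.22, 5.62, 5.19 and 8.04 CPM in C3 KO and 9.16, 8.20, 8.05 and 12.3 CPM in S1pr1 KO, again with S1pr1 KO above both other groups (0.53 against WT, SE 0.19, edgeR adjusted p = 0.171). Dnah7b was at 5.10 to 8.11 CPM in WT and 9.12 to 13.5 CPM in S1pr1 KO (0.73, SE 0.18, edgeR adjusted p = 0.0691). The mouse genome holds these 3 copies of what is a single gene in humans, all on chromosome 1, and they share sequence. Of the windows of 100 bases in Dnah7c transcripts, 16.5% also stood in Dnah7b and 13.0% in Dnah7a (GENCODE M21 transcripts, GRCm38), so reads may have been split between them and their single values are uncertain.

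Dnah10 and Dnah2 are the 2 heavy chains of the double-headed inner arm. Dnah10 (ENSMUSG00000038011, chromosome 5 from 124802149 to 124911372) had 27.9, 42.0, 54.5 and 39.4 CPM in WT, 52.8, 40.0, 43.7 and 79.0 CPM in C3 KO and 68.4, 59.2, 72.5 and 92.5 CPM in S1pr1 KO, with no overlap between S1pr1 KO and WT (0.84, SE 0.23, edgeR adjusted p = 0.0868). Dnah2 was at 17.6 to 25.7 CPM in WT and 26.7 to 41.5 CPM in S1pr1 KO (0.61, SE 0.18, edgeR adjusted p = 0.103). Per length Dnah10 was at 1.47 to 2.30 times Dnah2 over the 12 libraries.

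Dnah6 (ENSMUSG00000052861, chromosome 6 from 72994589 to 73198634) had 49.2, 61.9, 74.6 and 64.3 CPM in WT, 78.7, 64.3, 75.4 and 120 CPM in C3 KO and 84.8, 76.5, 96.0 and 132 CPM in S1pr1 KO, with no overlap between S1pr1 KO and WT (0.64, SE 0.21, edgeR adjusted p = 0.132). Dnah3, another single-headed chain (ENSMUSG00000052273, chromosome 7 from 119521894 to 119694503), had 25.7, 30.8, 35.4 and 31.1 CPM in WT, 44.2, 34.2, 38.1 and 60.2 CPM in C3 KO and 52.9, 37.5, 55.9 and 67.9 CPM in S1pr1 KO (0.80 in S1pr1 KO against WT, SE 0.19, edgeR adjusted p = 0.0622). Dnah1 was at 11.6 to 25.9 CPM in WT and 24.4 to 40.6 CPM in S1pr1 KO, overlapping through WT 3 (0.82, SE 0.26, edgeR adjusted p = 0.126). In Dnah6 and Dnah3 the library labelled C3 KO 4 stood above 3 of the 4 S1pr1 KO libraries, and C3 KO 2 lay within the WT range. Dnah14, at 0.738 to 2.11 CPM, showed no order by group (0.03, SE 0.34).

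**Figure D3:**
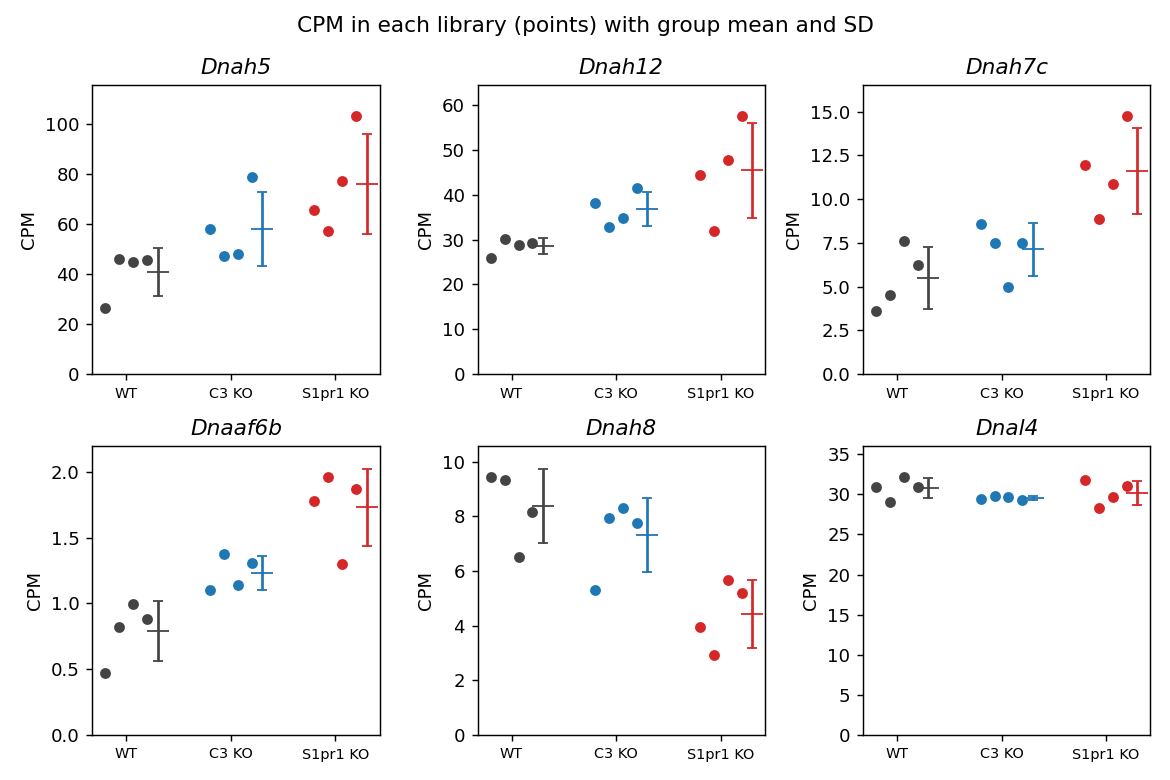
CPM in each library (points, replicates 1 to 4 from left to right) with the group mean and SD beside them, for 6 genes. Dnah5, Dnah12, Dnah7c and Dnaaf6b are higher in every S1pr1 KO library than in every WT library, Dnah8 is lower, and Dnal4 lies between 28.2 and 32.2 CPM in all 12.

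Among the intermediate chains the median was 0.44 and 1 of 4 was higher without overlap, against 6.16% of all genes. Dnai2, of the outer arm (ENSMUSG00000034706, chromosome 11 from 114618234 to 114648715), had 15.7, 20.4, 24.6 and 20.8 CPM in WT, 20.2, 19.1, 18.5 and 28.3 CPM in C3 KO and 30.3, 24.4, 24.9 and 31.9 CPM in S1pr1 KO, with WT 3 above S1pr1 KO 2 (0.45, SE 0.16, edgeR adjusted p = 0.161). Its partner Dnai1 was at 8.56 to 12.1 CPM in WT and 12.1 to 17.0 CPM in S1pr1 KO (0.43, SE 0.16, edgeR adjusted p = 0.170). Dnai1 stayed at 0.80 to 1.01 of the Dnai2 level per length in every library.
Dnai3 and Dnai4 are the intermediate chains of the double-headed inner arm. Dnai3 (ENSMUSG00000043020, chromosome 3 from 145746281 to 145813885) had 12.5, 17.9, 21.9 and 16.8 CPM in WT, 14.0, 17.7, 13.2 and 21.4 CPM in C3 KO and 18.1, 17.1, 18.2 and 24.0 CPM in S1pr1 KO, with WT and S1pr1 KO overlapping widely (0.17, SE 0.19). Dnai4 was at 15.7 to 21.8 CPM in WT and 23.8 to 36.7 CPM in S1pr1 KO, with no overlap (0.56, SE 0.14, edgeR adjusted p = 0.0742). Per length Dnai4 was at 0.45 to 0.57 of Dnai3 in WT, 0.55 to 0.78 in C3 KO and 0.63 to 0.69 in S1pr1 KO. No test was run on the ratios between genes.

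Of the light chains, Dnali1, the light intermediate chain of the inner arms (ENSMUSG00000042707, chromosome 4 from 124949131 to 124959496), had 19.8, 23.7, 26.2 and 23.0 CPM in WT, 25.4, 23.2, 21.7 and 35.3 CPM in C3 KO and 34.1, 28.2, 27.6 and 36.9 CPM in S1pr1 KO, with no overlap between S1pr1 KO and WT (0.45, SE 0.15, edgeR adjusted p = 0.143). Dnal1, which binds the outer arm heavy chain, differed less, at 36.9 to 41.4 CPM in WT and 42.9 to 49.1 CPM in S1pr1 KO (0.22, SE 0.09, edgeR adjusted p = 0.198). Dnal4 (ENSMUSG00000022420, chromosome 15 from 79645654 to 79662050) had 31.0, 29.1, 32.2 and 30.9 CPM in WT, 29.4, 29.8, 29.7 and 29.3 CPM in C3 KO and 31.8, 28.2, 29.7 and 31.0 CPM in S1pr1 KO. It was the steadiest of the 29 genes, with an SD of log2 CPM of 0.056 over the 12 libraries.

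The assembly factors were all positive in S1pr1 KO (7 of 7 tested, median 0.26). Of these 4 were higher without overlap, against 6.16% of all genes. Dnaaf6b, a PIH-domain factor on chromosome X (ENSMUSG00000042433, chromosome X from 138963628 to 139007546), had 0.468, 0.823, 0.996 and 0.878 CPM in WT, 1.10, 1.38, 1.14 and 1.31 CPM in C3 KO and 1.78, 1.96, 1.30 and 1.87 CPM in S1pr1 KO. The order from WT through C3 KO to S1pr1 KO was complete between WT and each knockout group, while S1pr1 KO 3 lay within the C3 KO range. These levels are low, and Dnaaf6b had no 100-base window shared with another gene. Dnaaf6 (ENSMUSG00000026063, chromosome 1 from 31261919 to 31263369), with 0 reads in each library, is listed with a length of 1451 bases, equal to its span, so the table gives it no intron.

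Dnaaf3 (ENSMUSG00000055809, chromosome 7 from 4525932 to 4535452) had 10.9, 13.7, 17.5 and 14.4 CPM in WT, 15.0, 15.0, 12.9 and 18.9 CPM in C3 KO and 22.5, 17.6, 21.8 and 22.8 CPM in S1pr1 KO, with no overlap between S1pr1 KO and WT (0.59, SE 0.15, edgeR adjusted p = 0.0718). It overlaps the cardiac troponin gene Tnni3 on the same strand, which was at 26.3 ± 10.1 CPM in WT and 80.6 ± 40.1 CPM in S1pr1 KO (SD, n = 4 each), all S1pr1 KO libraries above all WT libraries. Dnaaf3 shared no 100-base window with Tnni3, and the part of Tnni3 reads in the Dnaaf3 counts was not tested. Dnaaf1, which carries leucine-rich repeats, was at 4.26 to 9.81 CPM in WT and 10.2 to 12.3 CPM in S1pr1 KO (0.65, SE 0.20, edgeR adjusted p = 0.123). Of its windows, compared on both strands, 17.8% were shared with Taf1c, which overlaps it on the opposite strand.

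Dnaaf9 (ENSMUSG00000027309, chromosome 2 from 130548120 to 130748326), the most abundant assembly factor, had 102, 99.6, 89.8 and 95.8 CPM in WT, 112, 111, 99.0 and 98.4 CPM in C3 KO and 105, 111, 107 and 114 CPM in S1pr1 KO, without overlap between S1pr1 KO and WT but with a small difference (0.17, SE 0.06, edgeR adjusted p = 0.159). Dnaaf5 (0.20, SE 0.10) and Dnaaf10 (0.09, SE 0.10), at 21.1 to 29.1 CPM and 11.2 to 14.8 CPM over all libraries, overlapped between the groups. Dnaaf10 overlaps Ppp3r1 on the same strand (5858 and 37872 reads in all), and 14.6% of Dnaaf10 windows were shared with Ppp3r1. In all, 14 of the 31 genes overlap another protein-coding gene. Among them are Dnah17 (with Pgs1), Dnah14 (with Lbr) and Dnali1 (with Gnl2), where the opposite-strand gene had more reads. The part of such genes in the counts was not tested. Dnaaf2 was at 0.768 to 2.20 CPM (0.26, SE 0.31), and 64.6% of its windows were shared with 3 other annotated genes that overlap it. Dnaaf4 had 0 to 11 reads per library, and 86.7% of its windows were shared with genes that overlap it, so no level can be read from it.

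In C3 KO against WT, of the 29 genes 23 were positive and 6 negative, with a median of 0.19, where 49.8% of all genes were positive and 50.2% negative. Leaving out the library labelled C3 KO 4 gave a median of 0.09, leaving out WT 1 gave 0.12 and leaving out WT 3 gave 0.30, and it was 0.09 without both libraries that go against their labels. None passed in edgeR, where 0.00494% of all genes rose and as many fell. An unadjusted p under 0.05 was reached by 6 of the 29, and by 2217 of the 20229 genes. DESeq2 called 0 (0.465% of all genes higher and 0.263% lower). Every C3 KO library lay above every WT library for 3 genes (3.0% of all genes), namely Dnaaf6b, Dnah12 and Dnah5, and below for 0 (3.09%). The largest differences were those of Dnaaf6b (0.64, SE 0.24, edgeR adjusted p = 0.381), Dnah3 (0.52, SE 0.19, edgeR adjusted p = 0.372) and Dnah5 (0.51, SE 0.22, edgeR adjusted p = 0.434). The library labelled C3 KO 4 was the highest of its group in 22 of the 29 genes. Without both libraries that go against their labels, Dnaaf6b was at 0.61, Dnah3 at 0.34 and Dnah5 at 0.33. The WT libraries serve as controls in both comparisons, so the values of C3 KO and S1pr1 KO against WT are not independent.

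In S1pr1 KO against C3 KO, 28 of the 29 genes were positive and Dnah8 was negative, with a median of 0.27, where 50.7% of all genes were positive and 49.3% negative. None passed in edgeR, nor did any of the 20229 genes (0.0% in each direction). An unadjusted p under 0.05 was reached by 6 of the 29, and by 2437 of the 20229 genes. DESeq2 called Dnah8 lower and none higher (0.662% and 0.714% of all genes). S1pr1 KO lay wholly above C3 KO in Dnah7c, Dnah7a and Dnaaf1, which is 3 genes against 3.55% of all genes, and wholly below in 0 (2.84%). The largest differences were those of Dnah8 (-0.73, SE 0.21, edgeR adjusted p = 0.258), Dnah7c (0.70, SE 0.24, edgeR adjusted p = 0.299) and Dnah7a (0.59, SE 0.19, edgeR adjusted p = 0.289). Leaving out the library labelled C3 KO 4 gave a median of 0.42, and leaving out S1pr1 KO 4 gave 0.17. Without both libraries that go against their labels the median was 0.48, and Dnah8 was at -0.55, Dnah7c at 0.83 and Dnah7a at 0.79.

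Within each group most genes shared their lowest and highest library. WT 1 was the lowest WT library in 22 of the 29 genes and WT 3 the highest in 21. The library labelled S1pr1 KO 2 was the lowest of its group in 22, and S1pr1 KO 4 the highest in 20. Over all 12 libraries WT 1 was the lowest in 21 genes and S1pr1 KO 4 the highest in 19.

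The 18 ciliated cell markers, none of which is a dynein or assembly factor, were described beside them. In S1pr1 KO against WT all 18 were positive, with a median of 0.57, and 12 were higher without overlap, against 6.16% of all genes. Of the 18 markers 3 rose, against 0.821% of all genes: Ccdc153 by 0.89, Mlf1 by 0.78 and Ccdc113 by 0.64 on the log2 scale. Their SEs were 0.14 to 0.16, and the highest edgeR adjusted p of the 3 was 0.0477. Their score, the mean log2 CPM of the markers in a library, was 4.22 to 4.80 in WT, 4.47 to 5.09 in C3 KO and 4.91 to 5.31 in S1pr1 KO. It was lowest in WT 1 and highest in S1pr1 KO 4, and the library labelled C3 KO 4 had the highest score of C3 KO. WT and S1pr1 KO do not overlap in this score, so group and score cannot be told apart between them.

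When the score was subtracted from the log2 CPM of each gene, the SD over the 12 libraries fell in 21 of the 29 genes. In Dnaaf3 it fell from 0.34 to 0.093, in Dnai2 from 0.31 to 0.087 and in Dnah9 from 0.39 to 0.12. It did not fall in 8 genes, Dnah8, Dnah14, Dnah17, Dnaaf5, Dnal1, Dnaaf10, Dnaaf9 and Dnal4. In Dnal4 the SD went from 0.056 to 0.33, and in Dnaaf9 from 0.10 to 0.32. The score itself had an SD of 0.33 over the 12 libraries. Subtracting it must raise the SD of genes that vary little, here Dnaaf5, Dnal1, Dnaaf10, Dnaaf9 and Dnal4. For these the rise cannot show whether they follow the score.
With the score as a covariate in the edgeR fit, S1pr1 KO against WT had 14 positive and 15 negative genes and a median of -0.02. None was called, where 0.089% of all genes rose and 0.0989% fell, and 3 had an unadjusted p under 0.05, namely Dnaaf9 (0.26, SE 0.09), Dnaaf6b (0.84, SE 0.34) and Dnah8 (-0.81, SE 0.34), with the lowest edgeR adjusted p at 0.347. Dnah7c was at 0.42 (SE 0.27) and Dnah12 at 0.27 (SE 0.17), while Dnah5 was at 0.11 (SE 0.17) and Dnah10 at -0.02 (SE 0.10).

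**Figure D4:**
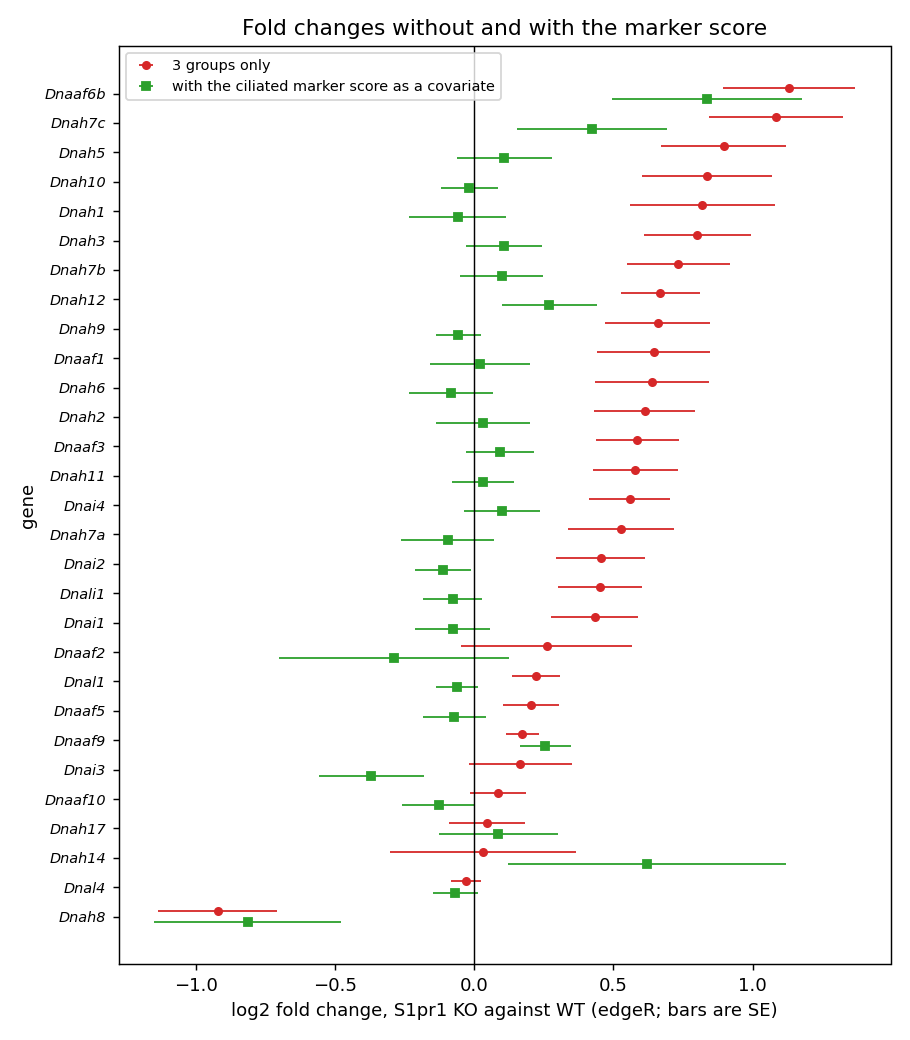
Log2 fold change of S1pr1 KO against WT for the 29 tested genes, in the fit with the 3 groups only (red circles) and in the fit with the ciliated marker score as a covariate (green squares), with SE as bars. With the score, 14 values lie above 0 and 15 below, and Dnaaf6b, Dnah14 and Dnah8 stand farthest from 0.

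Genes that work with the dynein arms were described in the same way. All 5 docking complex genes tested, which fix outer arms to the doublet, were positive in S1pr1 KO against WT with a median of 0.44, and none passed, for example Odad3 (0.58, SE 0.18, edgeR adjusted p = 0.114) and Odad1 (0.42, SE 0.13, edgeR adjusted p = 0.129). Of the genes of the molecular ruler and the nexin-dynein regulatory complex, which set the spacing of inner arms and hold doublets together, 12 of 12 were positive with a median of 0.52. Of these 1 rose, against 0.821% of all genes, namely Fbxl13, from a mean of 3.43 to 6.94 CPM (1.02, SE 0.17, edgeR adjusted p = 0.0251). Assembly factors with other names had 11 of 13 positive, a median of 0.16 and none called, with Lrrc6 at 0.59 (SE 0.14, edgeR adjusted p = 0.0633) and Daw1 at 0.54 (SE 0.14, edgeR adjusted p = 0.0814). Light chains and dynein partners with other names had 12 of 15 positive and a median of 0.10. In that list 1 gene fell, against 0.534% of all genes. It was Dynlt1b, a light chain also found in cytoplasmic dynein, which went from a mean of 14.9 to 6.95 CPM (-1.11, SE 0.17, edgeR adjusted p = 0.0145). The other Dynlt1 genes of the list did not pass, with Dynlt1a at -0.22 (SE 0.35), Dynlt1c at 0.04 (SE 0.11) and Dynlt1f at 0.14 (SE 0.18). Whether reads were split between these genes was not tested.

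Cytoplasmic dynein chains, which carry cargo and intraflagellar transport trains, had 7 of 9 positive, a median of 0.17 and none called. Dync1h1, the main cytoplasmic heavy chain, was at 0.17 (SE 0.05, edgeR adjusted p = 0.118) and Dync2li1 at 0.32 (SE 0.10, edgeR adjusted p = 0.135). Of 10 regulators of multiciliation 8 were positive, with a median of 0.42 and none called, with Trp73 at 0.63 (SE 0.18, edgeR adjusted p = 0.0929) and Myb at 0.49 (SE 0.19, edgeR adjusted p = 0.183). In the other comparisons, of C3 KO with WT and of S1pr1 KO with C3 KO, no gene of these 6 lists or of the ciliated markers was called.

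Markers of other cells were set beside these. Of 12 club cell markers 10 were positive in S1pr1 KO against WT (median 0.70, none called). Of these 2 were higher without overlap, against 6.16% of all genes. The summed level of the 12, most of it Scgb1a1 (mean 22142 CPM in WT and 19003 CPM in S1pr1 KO), was 24637 to 38094 CPM in WT and 21731 to 33249 CPM in S1pr1 KO. Of 8 cardiomyocyte markers all were positive, with a median of 1.78. Of these 1 rose, Ryr2 (1.86, SE 0.39, edgeR adjusted p = 0.0436), against 0.821% of all genes. The summed level of the 8 was 157 to 604 CPM in WT, 387 to 751 CPM in C3 KO and 737 to 2965 CPM in S1pr1 KO. The highest sum was that of the library labelled S1pr1 KO 2, and S1pr1 KO 1, 3 and 4 were at 737, 1380 and 1044 CPM. The medians were -0.10 for 7 alveolar type 2 markers, -0.14 for 6 alveolar type 1 markers, -0.13 for 5 endothelial, -0.23 for 6 leukocyte, 0.24 for 7 mammary epithelial and -0.41 for 6 skeletal muscle markers, with none called. No marker was at 0 in all libraries. The part of airway or cardiac tissue in the dynein differences was not tested.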

How the data were processed

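The authors deposited a table with a raw read count per gene and library, and a second set of columns with FPKM. The submitters' processing notes list CASAVA, STAR, mm39 and GRCm39. Counter, annotation and strand setting: not given in the sources used here. Groups were taken from the sample labels. The members and gene lists were chosen with earlier results of these data known.

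From the counts, edgeR 4.0.16 (R 4.3.3) was run with TMM scaling, filterByExpr and the quasi-likelihood test on all 12 libraries and 3 groups, with Benjamini-Hochberg adjustment over 20229 genes and a threshold of 0.05. The SE is the absolute log2 fold change divided by the square root of F. CPM used the TMM library sizes. The marker score used a prior count of 2. The fit was tested on simulated data. Total counts ranged from 32274797 to 53063470, and intervals from them would cover counting error only. Alternatives were DESeq2 1.42.0, limma 3.58.1 on log2(FPKM + 1) and log2(FPKM + 0.1), other scaling and filters, only the 2 groups compared, the marker score as covariate and leaving out libraries.

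Per-library values are given for genes that passed, for the 2 of highest mean FPKM in each role and for the 3 of largest fold change in each comparison with a mean of at least 1 CPM. A few others are named beside them. Shared windows of 100 bases came from GENCODE M21 transcripts, and promoters from RefSeq.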

Additional observations from a re-analysis of the deposited data

Results flagged for a closer look

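In 6 of 87 gene and group combinations, 1 library stood apart from the other 3 of its group by Dixon's criterion, and chance alone gives about 1 in 20. Dnah5 was at 26.6 CPM in WT 1 against 45.0 to 46.1 CPM in the other WT libraries, and Dnah7a at 4.68 CPM in WT 1 against 7.08 to 7.29 CPM. Dnaaf5 was at 27.6 CPM in WT 3 against 21.1 to 21.9 CPM. Dnah2 was highest, 34.9 CPM, in the library that carries the label C3 KO 4, against 22.3 to 24.1 CPM in the other C3 KO libraries. In S1pr1 KO 4, Dnai4 was at 36.7 CPM against 23.8 to 25.5 CPM and Dnai3 at 24.0 CPM against 17.1 to 18.2 CPM.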

How the results depend on the processing

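No paired analysis was possible because the replicate numbers were given in accession order and pair no samples. The count of genes called in S1pr1 KO against WT, 3 on all libraries, was 16 with DESeq2, 12 without both libraries that go against their labels, 1 with only the 2 groups compared (Dnah3), 1 with limma at either pseudocount (Dnaaf6b, 26 genes tested) and 0 with the ciliated marker score. Leaving out 1 library gave 0 to 10. With RLE scaling or a filter of 1 CPM the same 3 genes were called, and with no filter 4 were. The share of all genes called is not given here for these fits, for limma or for the 2 groups alone. Those counts therefore cannot be set against it. For S1pr1 KO against C3 KO, DESeq2 called 1. The cause was not tested. The median in S1pr1 KO against WT was -0.017 with the marker score and 0.40 to 0.63 with 1 library left out. In S1pr1 KO against C3 KO it was -0.090 with the score, 0.48 without both libraries and 0.17 to 0.42 with 1 left out, and in C3 KO against WT 0.09 to 0.30 with 1 left out. With the score, log2 fold changes of S1pr1 KO against WT turned negative in Dnah6 (-0.083), Dnah10 (-0.017), Dnal1 (-0.060), Dnah9 (-0.057), Dnali1 (-0.077), Dnaaf5 (-0.072), Dnah1 (-0.060), Dnai2 (-0.11), Dnai3 (-0.37), Dnaaf10 (-0.13), Dnai1 (-0.077), Dnah7a (-0.096) and Dnaaf2 (-0.29). Dnal4 was at 0.0014 without S1pr1 KO 2, 0.0016 without both libraries and -0.055 to 0.0014 with any 1 left out. Dnah17 was at -0.049 without S1pr1 KO 1 and -0.049 to 0.11 with any 1 left out, and Dnah14 at -0.059, -0.17 and -0.087 without WT 3, S1pr1 KO 3 and S1pr1 KO 4 and -0.17 to 0.25 with any 1 left out. With 1 library left out, the fold change ranged from 0.94 to 1.26 in Dnaaf6b, 0.93 to 1.28 in Dnah7c and 0.54 to 0.81 in Dnah12. Over all alternatives their adjusted p (edgeR, DESeq2 or limma) ranged from 0.0013 to 0.396, 0.00066 to 0.583 and 0.0012 to 0.583. For each gene the highest value came from the fit with the marker score as a covariate, where group and score cannot be told apart.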

Other observations

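The neighbours of Dnah8 on chromosome 17 were looked at after its values had been seen. Of the 9 protein-coding genes tested within 500 kb on either side, none passed in S1pr1 KO against WT (lowest edgeR adjusted p = 0.0542, in Glo1). Btbd9, next to Glo1, was at 0.03 on the log2 scale, Zfand3 at -0.09, Glp1r at 0.47, Abcg1 at -0.34 and Slc37a1 at -0.19. The other neighbours were Tff2 (1.53), a secreted trefoil peptide, Ubash3a (-1.04) and Rsph1 (0.59), a radial spoke head protein of motile cilia. Glo1 was at -0.37 in C3 KO against WT (edgeR adjusted p = 0.350), with 3 of the 4 C3 KO libraries at 44.0 to 49.3 CPM and the library labelled C3 KO 4 at 73.6 CPM.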
